A study of Mus musculus with 4 samples.

Results

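The glial and neuronal intermediate filament genes were examined here as 9 genes chosen by symbol out of the 22609 gene symbols counted in each library, and all 9 passed the filter on low counts. They are 3 glial genes (Gfap, Vim and Nes), 4 neuronal genes (Nefl, Nefm, Nefh and Ina) and 2 lamin genes (Lmna and Lmnb1). Expression was measured by RNA-Seq in whole hippocampus from ovariectomized female mice aged 3 to 5 months, in 4 libraries: 2 from FLOX+GCI mice and 2 from FBN-ARO-KO+GCI mice. FLOX mice are the controls, and FBN-ARO-KO mice carry a Cre/LoxP deletion of Cyp19a1, the gene for aromatase, with Cre driven by the CaMKIIα promoter, which is active in excitatory neurons of the forebrain. Both ovaries were removed 1 week before surgery, and every mouse had both common carotid arteries occluded for 20 min (global cerebral ischemia, GCI) and was sampled after 24 h of reperfusion, so that every library comes from an ischemic hippocampus. The sources do not say whether a library holds 1 mouse or a pool, so p-values measure the spread between these libraries, which may be technical.

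Intermediate filaments are rope-like polymers built from proteins with a shared coiled-coil rod. GFAP is the main filament of astrocytes, where it is joined by vimentin, and both classically increase when astrocytes respond to injury. Vimentin is also abundant in endothelial, mural and other mesenchymal cells, and nestin marks neural progenitors, some reactive astrocytes and vascular cells. Neurofilaments of axons copolymerize a light, a medium and a heavy chain (Nefl, Nefm and Nefh) with α-internexin (Ina), and set axon caliber. Lamins line the inner side of the nuclear envelope. Lmna encodes lamins A and C, which stiffen the nucleus, and Lmnb1 encodes the B-type lamin B1.

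The promoter windows of the glial genes are printed because 2 of these genes, Vim and Nes, were lower in FBN-ARO-KO+GCI and Gfap varied most between libraries. The windows come from RefSeq on build GRCm38.p6, with 250 bases before and 50 after a start site, and 5 of the 9 members had an entry (Gfap, Vim, Nes, Ina and Lmna). Each sequence runs 5′ to 3′ on the strand of its gene, and capitals mark matches on either strand to TTCNNNGAA (the motif of STAT factors), TGANTCA (AP-1), TATAAA (the box bound by TBP) or the CCAAT box. The windows lie at chr11:102897151-102897450 on the minus strand for Gfap, chr2:13574061-13574360 on the plus strand for Vim and chr3:87970843-87971142 on the plus strand for Nes.
Gfap: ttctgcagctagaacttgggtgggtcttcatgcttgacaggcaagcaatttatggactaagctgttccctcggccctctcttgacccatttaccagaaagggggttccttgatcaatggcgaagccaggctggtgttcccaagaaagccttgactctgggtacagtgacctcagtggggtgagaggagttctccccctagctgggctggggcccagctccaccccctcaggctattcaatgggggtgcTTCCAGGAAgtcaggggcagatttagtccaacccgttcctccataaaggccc
Vim: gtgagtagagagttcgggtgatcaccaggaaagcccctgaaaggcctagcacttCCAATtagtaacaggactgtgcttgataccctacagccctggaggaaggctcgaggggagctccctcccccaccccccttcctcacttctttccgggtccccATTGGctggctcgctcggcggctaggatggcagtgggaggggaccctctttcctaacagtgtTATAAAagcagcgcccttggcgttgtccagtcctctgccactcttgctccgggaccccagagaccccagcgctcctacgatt
Nes: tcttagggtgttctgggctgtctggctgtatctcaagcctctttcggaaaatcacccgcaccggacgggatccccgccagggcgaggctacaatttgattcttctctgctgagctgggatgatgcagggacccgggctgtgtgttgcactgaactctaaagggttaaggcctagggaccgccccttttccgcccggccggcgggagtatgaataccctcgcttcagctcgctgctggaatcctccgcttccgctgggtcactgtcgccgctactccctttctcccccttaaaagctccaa

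In these windows, Gfap held 1 STAT match, whose first base lay 2 bases before the start site, and no other capital match. The STAT letters occur in 8.3% of 32851 RefSeq promoter windows of this length. Vim held 1 TATA box, beginning at base -32, and 2 CCAAT matches, at bases -196 and -94, which occur in 13.6% and 37.4% of the windows. Nes held none of these 4 motifs and had 2 matches to GGGCGG, the GC box, which occurs in 35.7% of the windows. AP-1 letters, found in 7.81% of the windows, were absent from these 3 windows. These matches describe letters only and were not linked to any measurement.

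The counts on genes totaled between 24333396 and 33076795 per library. A floor of 3 counts corresponds, by library, to a level of 0.0905 to 0.122 CPM (counts scaled to library depth, with TMM factors), which covers counting error only. The members had between 144 and 22192 counts in a library and together took between 0.139% and 0.190% of the counts. The targeted gene Cyp19a1 had between 1 and 4 counts in each library, too few to check the labels. The hippocampus markers Prox1, Wfs1, Neurod6, Fibcd1, C1ql2 and Grik4 had over 1000 counts in each library. The other listed ones had fewer, Spink8 216 to 423 and Zbtb20 162 to 313. Genotypes were compared over 14527 genes with edgeR's quasi-likelihood test and Benjamini-Hochberg adjustment over all of them. Log2 fold changes are FBN-ARO-KO+GCI over FLOX+GCI, with standard errors derived from the test's F statistic and 95% intervals from them.

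No member had an adjusted p under 0.05 (0 of 9, where 0.0138% of all tested genes were called), and the smallest adjusted p was 0.238. DESeq2 called 1 member (Vim), where it called 4.6% of the genes to which it gave an adjusted p. It gave none to Nes, Lmna and Lmnb1, so these members could not be called by it. The likelihood ratio test of edgeR called 2 members (Vim and Lmna) and 2.02% of all tested genes. At an unadjusted p under 0.05, 3 of the 9 members, Vim, Nes and Lmna, were lower in FBN-ARO-KO+GCI, against 7.82% of all tested genes, and 0 members were higher, against 8.72%. The 2 libraries of one genotype lay entirely below those of the other for 3 members (Vim, Nes and Lmna, lower in FBN-ARO-KO+GCI, as were 25.8% of tested genes) and entirely above for 3 members (Nefm, Ina and Lmnb1, as were 25.9%). The vimentin, nestin and lamin A/C genes differed by 0.49 to 0.71 in log2 size, and none of the 4 neuronal genes by more than 0.084. The median log2 fold change was -0.49 for the glial, 0.029 for the neuronal and -0.25 for the lamin genes, beside -0.0074 for all tested genes. The lamin median lies between members of opposite sign.

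**Figure D1:**
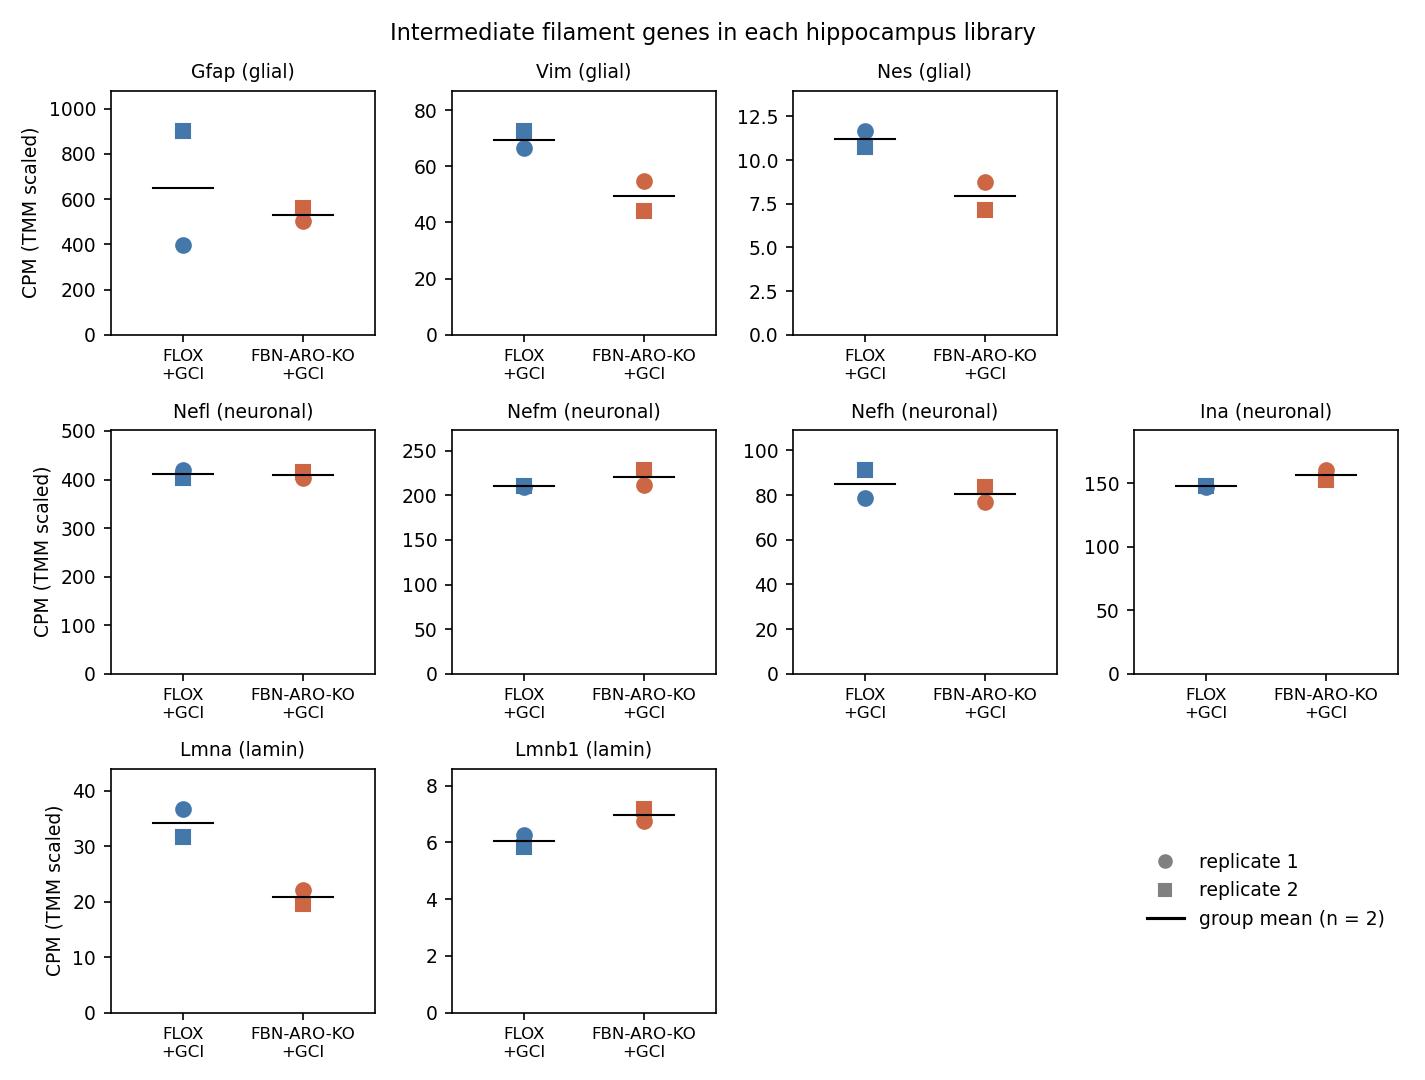
CPM of each member (y axis, from 0) in the 4 libraries, by genotype on the x axis, with circles for replicate 1, squares for replicate 2 and a line at the mean of 2 libraries. Vim, Nes and Lmna were lower in both FBN-ARO-KO+GCI libraries, Gfap was split between the FLOX+GCI libraries (396 and 900 CPM), and the neuronal genes lay close together.

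Among the glial genes, Gfap was the most variable. On chromosome 11 of mm9 (102748650 to 102762226, minus strand), it had 396 and 900 CPM in FLOX+GCI replicates 1 and 2 and 502 and 560 CPM in FBN-ARO-KO+GCI. Both FBN-ARO-KO+GCI libraries lay between the FLOX+GCI libraries, which differed from each other by 1.19 on the log2 scale. The mean was 648 ± 357 CPM (SD, n = 2) in FLOX+GCI, with 531 ± 40.8 CPM (SD, n = 2) for FBN-ARO-KO+GCI. The log2 fold change of -0.29 (standard error 0.32, 95% interval -1.03 to 0.45, edgeR adjusted p = 0.655) was within the spread of FLOX+GCI. It turned to 0.42 without FLOX+GCI replicate 2 (adjusted p = 0.0959 in edgeR) and was -0.76 without FLOX+GCI replicate 1 (adjusted p = 0.00174 in edgeR, in a fit that called 1.3% of all genes), so the direction of Gfap was set by which control library was compared. Of all reads on the 9 members, Gfap took 28.9% and 48.0% in FLOX+GCI against 34.7% and 36.9% in FBN-ARO-KO+GCI.

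The high Gfap in FLOX+GCI replicate 2 was not seen in the summed level of other astrocyte genes. The summed level of 10 astrocyte markers (Aqp4, Slc1a3, Slc1a2, Aldh1l1, Gja1, Gjb6, S100b, Aldoc, Slc4a4 and Sox9) was 5795 and 5373 CPM in the FLOX+GCI pair against 5910 and 6536 CPM in FBN-ARO-KO+GCI, lowest in that library. The largest parts of this sum were Slc1a2, Aldoc and Slc1a3. Within the FLOX+GCI pair, Aqp4 (123 and 177 CPM), Aldh1l1 (59.5 and 65.2 CPM) and Slc4a4 (184 and 192 CPM) were higher in replicate 2. The other listed markers were lower there than in replicate 1. At an unadjusted p under 0.05, 1 of these markers was higher (Slc1a2) and 1 lower (Aldh1l1) in FBN-ARO-KO+GCI. The shares of all tested genes were 8.72% and 7.82%. With the GC and length correction described below, Slc1a2 had a log2 fold change of 0.098 (unadjusted p = 0.187 in edgeR). Aldh1l1 had -0.22 (unadjusted p = 0.0299 in edgeR). Relative to Aldh1l1, an astrocyte enzyme of folate metabolism, Gfap per kilobase was 10.5 and 21.8 in the FLOX+GCI pair against 15.9 and 17.1 in FBN-ARO-KO+GCI, a ratio chosen after the values were seen. Slc17a6, the vesicular glutamate transporter typical of thalamus, also stood apart in FLOX+GCI replicate 2. It had 64.2 CPM there against 22.3 to 25.3 CPM in the other libraries. Tnnt1 was highest in that library on CPM (0.568 against 0.200 to 0.422 CPM). Its counts were only 5 and 14 in the FLOX+GCI pair against 14 and 7 in FBN-ARO-KO+GCI, so it did not stand apart. The other 3 thalamus markers, Tcf7l2 (2.35 CPM), Prkcd (22.4 CPM) and Lef1 (4.06 CPM), were not highest in that library. The part of tissue composition in the Gfap difference was not tested. Gfap overlaps the lincRNA Gm17536 on the opposite strand, but the 2 share 0 exon bases.

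The genes whose levels over the 4 libraries were most like those of Gfap were Aldh1l2, Serpina3m, 4833422C13Rik, Prss23 and Tnc, out of 11278 genes with a mean of at least 5 CPM. Likeness was the largest of the 4 differences in centered log2 CPM, and ranged from 0.12 to 0.18 for these genes. Tnc, for the matrix glycoprotein tenascin C, had 4.07 and 8.56 CPM in the FLOX+GCI pair against 5.79 and 5.29 CPM in FBN-ARO-KO+GCI. Aldh1l2, a mitochondrial enzyme of folate metabolism, had 3.79 and 7.62 CPM in FLOX+GCI and 4.95 CPM in each FBN-ARO-KO+GCI library. Serpina3m has close paralogs, between which reads may have been divided in counting, so its values are uncertain. Prss23, a serine protease, had 23.7 and 47.0 CPM in the FLOX+GCI pair against 26.6 and 27.1 CPM in FBN-ARO-KO+GCI. With 4 libraries this likeness is a description and rests on FLOX+GCI replicate 2.

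Vim was lower in FBN-ARO-KO+GCI and did not show the split of Gfap. On chromosome 2 of mm9 (13495554 to 13504453, plus strand), it had 66.5 and 72.5 CPM in the FLOX+GCI pair against 54.8 and 44.1 CPM in FBN-ARO-KO+GCI, and the groups did not overlap. The log2 fold change was -0.49 (standard error 0.12, 95% interval -0.76 to -0.22, unadjusted p = 0.00366 and adjusted p = 0.238 with edgeR's quasi-likelihood test). This is a fold of 0.712. With DESeq2 the adjusted p was 0.0171 and with edgeR's likelihood ratio test 0.0202, and over all alternatives it ranged from 0.0171 to 0.844.

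Nes was also lower, at a far lower level. On chromosome 3 (87775000 to 87784373, plus strand), it had 292 and 265 counts in the FLOX+GCI pair against 289 and 210 counts in the deeper FBN-ARO-KO+GCI libraries. In CPM these were 11.6 and 10.7 against 8.72 and 7.17, so that the groups did not overlap. The log2 fold change of -0.49 (standard error 0.16, 95% interval -0.86 to -0.13) had an unadjusted p of 0.0150 and an adjusted p of 0.248 (edgeR's quasi-likelihood test). With 1 library left out in turn, it stayed between -0.65 and -0.36, and that of Vim between -0.66 and -0.34.

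Vim and Nes are also vascular genes, and vascular markers also had log2 fold changes below 0. The 6 endothelial markers (Cldn5, Pecam1, Flt1, Cdh5, Kdr and Tie1) had a median log2 fold change of -0.43. All 6 were below 0, as were 7458 of the 14527 tested genes. Of the 6, 2 (Cdh5 and Tie1) had an unadjusted p under 0.05, where 7.82% of all tested genes were lower. The summed level of the endothelial markers was 199 and 134 CPM in the FLOX+GCI pair against 149 and 107 CPM in FBN-ARO-KO+GCI. All 6 mural and fibroblast markers (Pdgfrb, Rgs5, Acta2, Tagln, Col1a1 and Dcn) were below 0 as well, with a median of -0.52. Of these, 1 (Pdgfrb) had an unadjusted p under 0.05, beside the same 7.82% of all tested genes. Their summed level was 259 and 170 CPM against 194 and 137 CPM. None of these markers was at 0 counts in all libraries. In both summed levels the groups overlapped and replicate 2 was below replicate 1 in each genotype. Nes and Lmna were likewise lower in replicate 2 than in replicate 1 of each genotype, and Vim was so in FBN-ARO-KO+GCI and higher in replicate 2 of FLOX+GCI. The part of vascular cells in the differences of Vim, Nes and Lmna was not tested. In bulk tissue, fewer cells of a type and less RNA per cell cannot be told apart.

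**Figure D2:**
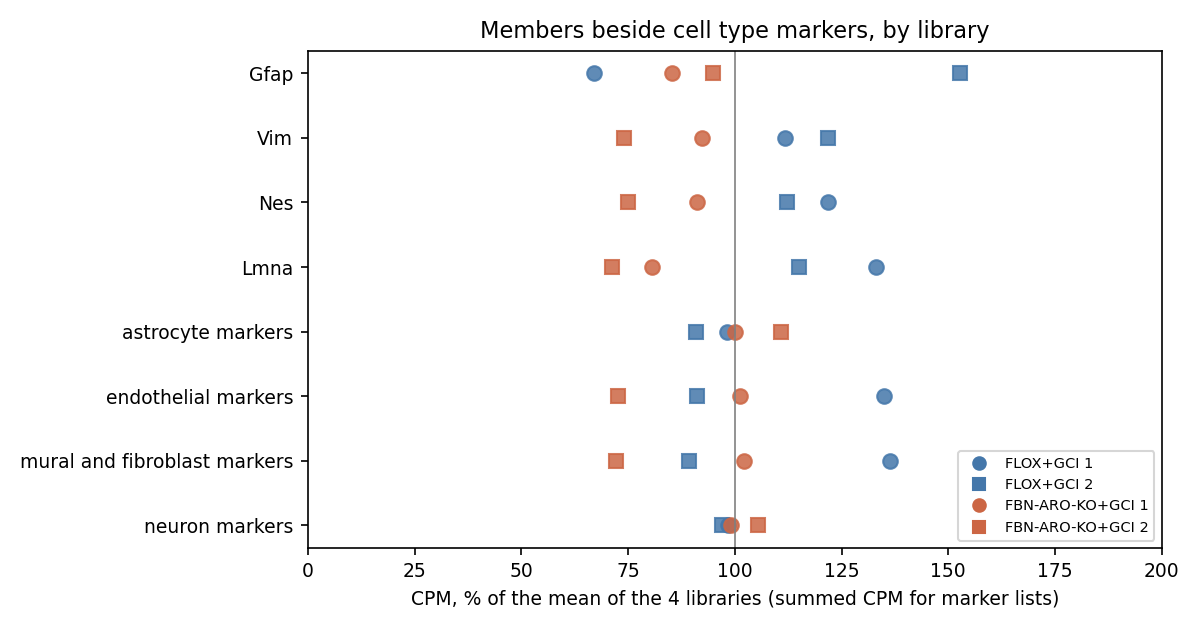
CPM of Gfap, Vim, Nes and Lmna and summed CPM of the astrocyte, endothelial, mural and fibroblast, and neuron marker lists, each as a percentage of the mean of the 4 libraries (x axis), with blue for FLOX+GCI, orange for FBN-ARO-KO+GCI, circles for replicate 1 and squares for replicate 2. Vim, Nes and Lmna separate the genotypes, Gfap peaks in FLOX+GCI replicate 2, the endothelial list (199 and 134 against 149 and 107 CPM) overlaps between genotypes, and the neuron list stays near the mean.

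The 4 neuronal genes differed little between genotypes. Nefl, on chromosome 14 (68701920 to 68707152, plus strand), encodes the light chain on which the other chains assemble. It had 419 and 403 CPM in the FLOX+GCI pair against 402 and 414 CPM in FBN-ARO-KO+GCI. The libraries of both genotypes interleaved. Its log2 fold change was -0.0089 (95% interval -0.17 to 0.15, edgeR adjusted p = 0.957). Nefm, the medium chain, had 209 and 210 CPM in the FLOX+GCI pair against 212 and 228 CPM in FBN-ARO-KO+GCI. The groups did not overlap, but the log2 fold change was 0.068 (95% interval -0.10 to 0.24), and this interval holds 0.

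Nefh, the heavy chain, on chromosome 11 (4838757 to 4848067, minus strand), had 78.5 and 91.1 CPM in the FLOX+GCI pair against 76.8 and 83.8 CPM in FBN-ARO-KO+GCI. The groups overlapped, and the log2 fold change was -0.080 (95% interval -0.31 to 0.15). Ina, for α-internexin, on chromosome 19 (47089188 to 47099817, plus strand), had 147 and 148 CPM in the FLOX+GCI pair against 160 and 153 CPM in FBN-ARO-KO+GCI. The log2 fold change of Ina was 0.084 (95% interval -0.080 to 0.25, edgeR adjusted p = 0.548). The summed level of 10 neuron markers, among them Rbfox3, Snap25, Map2 and Camk2a, was 13650 and 13440 CPM in the FLOX+GCI pair against 13750 and 14620 CPM in FBN-ARO-KO+GCI. Their median log2 fold change was 0.029, with 6 markers above 0 and 4 below. At an unadjusted p under 0.05, 1 was higher (Snap25) and 1 lower (Rbfox3), beside 8.72% and 7.82% of all tested genes. With the GC and length correction described below, Snap25 had 0.11 (unadjusted p = 0.143 in edgeR) and Rbfox3 0.030 (unadjusted p = 0.664 in edgeR).

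Ratios of chains within a library do not depend on the scaling between libraries. They were not corrected for GC content, which was 48.9% for Nefl, 57.8% for Nefm, 58.4% for Nefh and 55.5% for Ina. With the GC and length correction described below, log2 fold changes were -0.018 for Nefl, 0.25 for Nefm, 0.11 for Nefh and 0.21 for Ina. Per kilobase of the longest coding transcript, the ratio of Nefm to Nefl was 0.469 ± 0.0153 (SD, n = 2) in FLOX+GCI, with 0.494 ± 0.0154 (SD, n = 2) for FBN-ARO-KO+GCI. The ratio of Nefh to Nefl was 0.175 ± 0.0233 in FLOX+GCI against 0.166 ± 0.00677 in FBN-ARO-KO+GCI (SD, n = 2 each), and that of Ina to Nefl was 0.375 ± 0.0129 and 0.400 ± 0.0223 (SD, n = 2 each). The Nefm and Ina ratios were higher in both FBN-ARO-KO+GCI libraries than in either control, Ina by a margin from 0.3843 to 0.3844. The smallest two-sided p that an exact permutation test of 2 against 2 libraries can give is 0.333, which Nefm to Nefl and Ina to Nefl reached, while Nefh to Nefl gave 1. Adjusted over the 4 ratios tested, the exact p-values were 0.666, 0.666 and 1. The fourth ratio, Vim to Gfap, was 0.203 and 0.0972 in the FLOX+GCI pair against 0.132 and 0.0950 in FBN-ARO-KO+GCI (exact permutation p = 0.667, two-sided, adjusted p = 0.889).

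**Figure D3:**
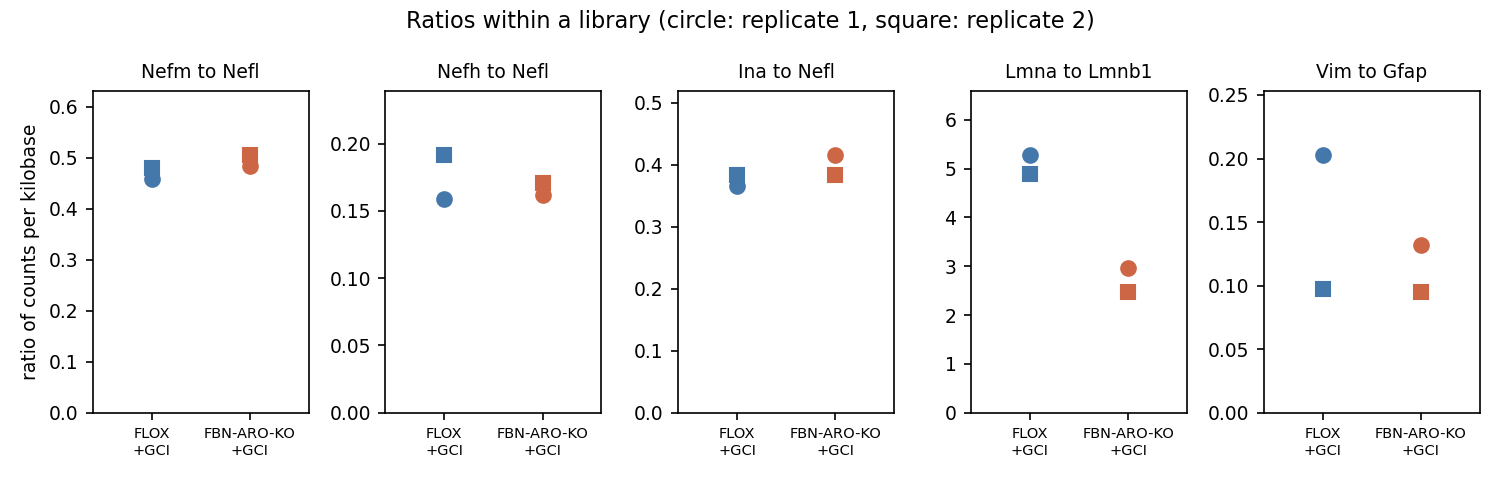
Ratios of counts per kilobase within each library (y axis, from 0) for neurofilament chains over Nefl, Lmna over Lmnb1 and Vim over Gfap, by genotype on the x axis, with circles for replicate 1 and squares for replicate 2. The neurofilament ratios stay within a narrow band, while Lmna to Lmnb1 goes from 5.28 and 4.89 in FLOX+GCI to 2.96 and 2.47 in FBN-ARO-KO+GCI. No ratio was corrected for GC content.

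The annotation limits the levels of Nefl and Nefm. The 2 genes are neighbors on chromosome 14 on opposite strands, and a longer annotated transcript of Nefm (the gene spans 68700647 to 68742903) reaches over Nefl and shares 1108 exon bases with it. The strand setting and annotation of the counting are not stated, so whether reads were shared or dropped there is not known. Ina shares 456 exon bases with Nt5c2 on the opposite strand. With all annotated exons as the length, the ratio of Nefm to Nefl was 0.299 in FLOX+GCI against 0.315 in FBN-ARO-KO+GCI.

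The 2 lamin genes had log2 fold changes of opposite sign. Lmna, on chromosome 3 (88285070 to 88313878, minus strand), had 36.7 and 31.7 CPM in the FLOX+GCI pair against 22.2 and 19.7 CPM in FBN-ARO-KO+GCI, with no overlap. It had the largest difference of the 9 members, a log2 fold change of -0.71 (standard error 0.12, 95% interval -0.99 to -0.43) or a fold of 0.613. Its unadjusted p of 0.000478 ranked 27 among the 14527 tested genes, and its edgeR adjusted p was 0.238. It was 0.000438 with edgeR's likelihood ratio test and 0.0117 with the edgeR test without FLOX+GCI replicate 2, which called 0.854% of all genes. Over all alternatives it ranged up to 0.815, and DESeq2 gave no adjusted p for Lmna. Fits that each dropped 1 library gave values from -0.81 to -0.60.

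Lmnb1 had 157 and 144 counts in the FLOX+GCI pair against 224 and 210 counts in FBN-ARO-KO+GCI. In CPM these were 6.26 and 5.84 against 6.76 and 7.17, so that both FBN-ARO-KO+GCI libraries were above the controls. The log2 fold change was 0.20 (standard error 0.16, 95% interval -0.17 to 0.58, edgeR adjusted p = 0.532). Per kilobase, Lmna was 5.08 ± 0.278 times Lmnb1 in FLOX+GCI and 2.71 ± 0.346 times in FBN-ARO-KO+GCI (SD, n = 2 each), a ratio chosen after the values were seen and given without a test.

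**Figure D4:**
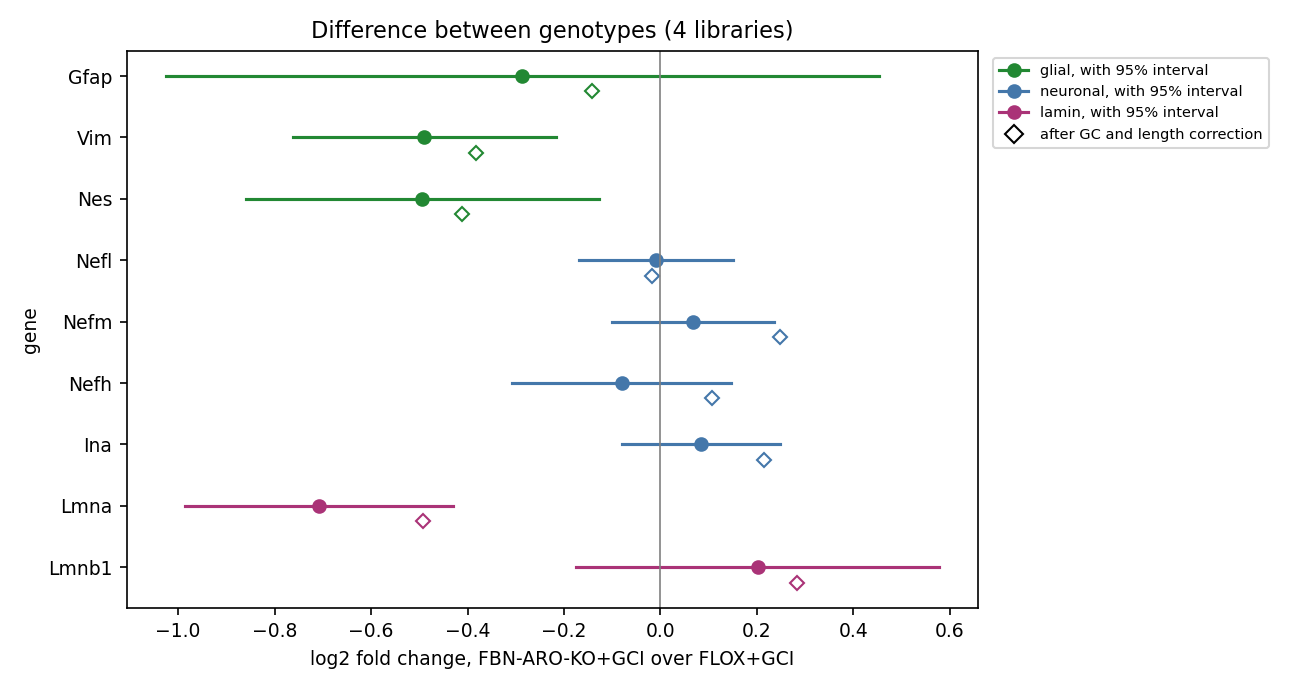
Log2 fold change between genotypes (x axis) of each member (y axis), as filled circles with 95% intervals from edgeR's quasi-likelihood fit, and as open diamonds after the trends over GC content and length were removed. The intervals of Vim, Nes and Lmna lie below 0 and that of Gfap, from -1.03 to 0.45, is the widest.

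The differences between genotypes followed the GC content of transcripts, and the members are GC-rich. Across 13868 tested genes with a transcript sequence, which are not independent replicates, Spearman's rho of the log2 ratio between genotypes with GC content was -0.56. The same measure was -0.48 for FBN-ARO-KO+GCI replicate 2 against replicate 1 and 0.10 within FLOX+GCI. GC content was between 53.3% and 59.3% for every member but Nefl (48.9%), against a median of 50.6% for tested genes. The 500 tested genes nearest to Lmna in GC content had a median log2 fold change of -0.20, those nearest to Vim -0.055 and those nearest to Nes -0.11, smaller in size than the values of these genes. For Nefm and Ina, those genes had medians of -0.14 and -0.10, opposite in sign to the members.

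After removal of the GC and transcript length trends of each library, the log2 fold changes were -0.38 for Vim, -0.41 for Nes and -0.49 for Lmna, and 0.25 for Nefm and 0.21 for Ina. In this fit 5 members had an unadjusted p under 0.05 (Vim, Nes and Lmna lower, Nefm and Ina higher), against 11.5% of the genes it covered, and none passed an adjusted p of 0.05, the smallest being 0.316 for Lmna. Nefh changed sign, to 0.11, and Gfap had -0.14 (edgeR adjusted p = 0.882). The same 6 members had groups that did not overlap, in the same directions, as without the correction. Before the correction, 25.8% of tested genes did not overlap and were lower, and 25.9% were higher. The share after the correction is not given here, so this count alone says little about the members. With library totals alone, 5 members did not overlap. The share of all tested genes under that scaling is not given either, so the same limit holds. Corrected levels were 33.9 and 29.7 CPM against 22.7 and 22.5 CPM for Lmna and 141 and 142 CPM against 162 and 166 CPM for Ina.

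**Figure D5:**
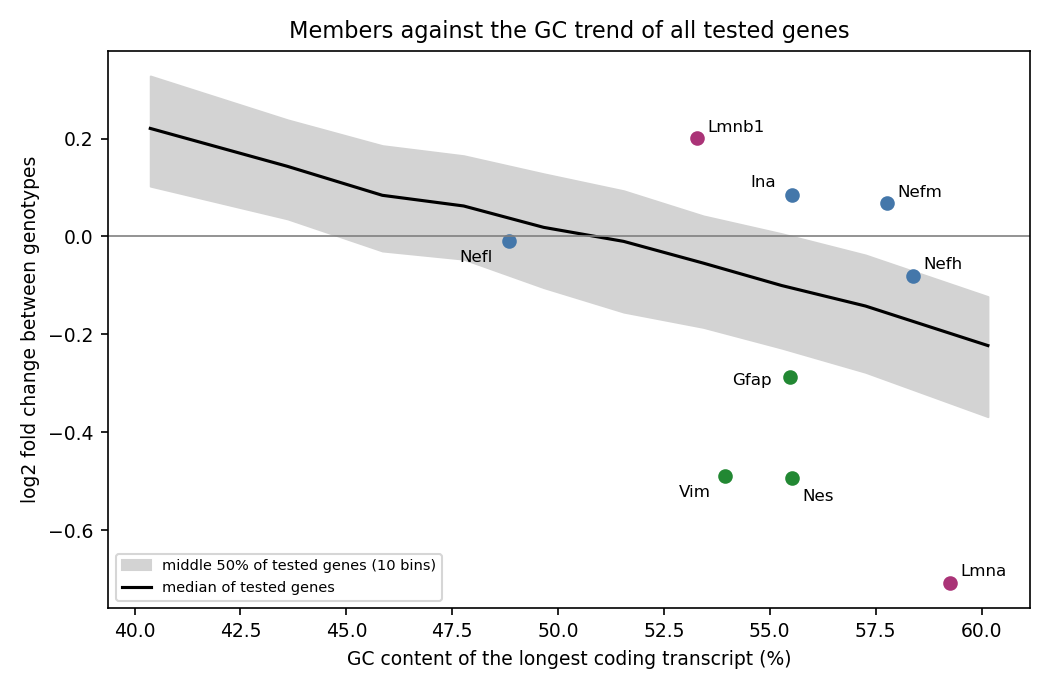
Log2 fold change between genotypes (y axis) against GC content of the longest coding transcript (x axis), with the median (line) and middle 50% (grey) of tested genes in 10 bins and the 9 members as points. Gfap, Vim, Nes and Lmna lie below the grey band of genes of like GC content, and Lmnb1, Ina and Nefm lie above it. The point of Gfap rests on FLOX+GCI libraries that were split (396 and 900 CPM).

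On a scale per transcript length (mean CPM per kilobase of the longest coding transcript, which allows genes to be compared), Gfap was the highest of the members, at 245 ± 135 in FLOX+GCI against 201 ± 15.4 in FBN-ARO-KO+GCI (SD, n = 2 each). Nefl followed at 122 and 121, Nefm at 57.0 and 59.8, Ina at 45.6 and 48.3, Vim at 31.7 and 22.6, and Nefh at 21.2 and 20.1. Lmna had 10.8 and 6.63, Lmnb1 2.13 and 2.45, and Nes 1.83 and 1.30 CPM per kilobase. In FBN-ARO-KO+GCI the lower Vim library (20.1) lay below the higher Nefh library (21.0), and all other neighbors in this order were separated in both genotypes. With all annotated exons as the length, Nefm (36.3 in FLOX+GCI) came below Ina, and Gfap (154 and 126) came closer to Nefl.

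Other genes of the filament system, in lists written for this comparison, held few with a small p and, with edgeR's quasi-likelihood test, 0 with an adjusted p under 0.05. Of 14 further intermediate filament genes (such as Lmnb2, Synm, Des, Prph and keratins), 10 were tested, 2 had log2 fold changes above 0 and 8 below, and none had an unadjusted p under 0.05. Their median was -0.18 beside -0.0074 for all tested genes. Des, the desmin of mural cells, had 113 and 54 counts in the FLOX+GCI pair against 80 and 25 in FBN-ARO-KO+GCI (log2 fold change -1.02, unadjusted p = 0.0837 in edgeR). Krt18 had 10 and 10 counts against 9 and 4, and Prph, the peripherin of peripheral neurons, had a log2 fold change of -0.49 (unadjusted p = 0.222 in edgeR). Synm, a partner of vimentin and desmin, had 0.059.

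Cytolinkers, the large proteins that tie filaments to each other and to the membrane, were 7 genes, of which 6 were tested. At an unadjusted p under 0.05, 3 were lower (Plec, Ppl and Evpl) and 1 higher (Dsp), where 7.82% and 8.72% of all tested genes were, and the median was -0.24. After the GC and length correction 3 of these had an unadjusted p under 0.05, and Evpl did not. Plec, for plectin, which binds vimentin and GFAP, had 3358 and 3367 counts in the FLOX+GCI pair against 3390 and 2756 in the deeper FBN-ARO-KO+GCI libraries. Its log2 fold change was -0.46 (standard error 0.076, edgeR adjusted p = 0.238), and -0.21 after the GC and length correction, at a GC content of 61.3%. Ppl, for periplakin, had -0.68 and Evpl, for envoplakin, -0.70. Dsp, for desmoplakin, was higher, with 1588 and 1263 counts in the FLOX+GCI pair against 2607 and 2174 in FBN-ARO-KO+GCI (log2 fold change 0.42, adjusted p = 0.238 in edgeR). Dst and Macf1, the most abundant cytolinkers here, had log2 fold changes of -0.0085 and 0.0071.

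All 15 partners of the lamina and nuclear envelope were tested, and none had an unadjusted p under 0.05 (8 above 0 and 7 below, median 0.0011). Those with the smallest p were Zmpste24, the protease that matures prelamin A, at 0.20, Lemd3, an inner nuclear membrane protein, at 0.25, and Lemd2 at -0.21. After the GC and length correction Lemd2 turned to 0.10, at a GC content of 63.8%, Zmpste24 had 0.056 and Lemd3 0.20. Of 16 genes for neurofilament transport, kinases and turnover, 1 was higher at an unadjusted p under 0.05, where 8.72% of all tested genes were. The median of the 16 genes was 0.087. That gene was Trim2, a ubiquitin ligase of the light chain, with 8618 and 10111 counts in the FLOX+GCI pair against 14744 and 14486 in FBN-ARO-KO+GCI (log2 fold change 0.32, edgeR adjusted p = 0.248). Kif5b, a kinesin heavy chain, had a log2 fold change of 0.22. With the GC and length correction, Trim2 had 0.20 (unadjusted p = 0.062 in edgeR) and Kif5b 0.015.

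Of the remaining marker lists, the summed level was 394 and 358 CPM in FLOX+GCI against 363 and 420 CPM in FBN-ARO-KO+GCI for 7 microglia markers, and 3885 and 4398 against 4451 and 4578 CPM for 6 oligodendrocyte markers. For 6 choroid plexus and ependymal markers it was 68.9 and 57.6 against 52.4 and 58.9 CPM. This sum hides opposite directions. Ttr was lower in both FBN-ARO-KO+GCI libraries (8.93 and 15.6 CPM, against 26.5 and 21.9 CPM in FLOX+GCI). Foxj1 was higher in both, as were Ccdc153 and Tmem212 at 19 to 54 counts, and Kl and Folr1 overlapped. For 6 progenitor and proliferation genes the sum was 53.0 and 46.0 against 52.2 and 51.2 CPM, with Sox2 and Dcx as its largest parts. Mki67, Top2a and Eomes had at most 20 counts in a library. The summed level of 8 hippocampus markers was 881 and 868 against 875 and 888 CPM. For 5 thalamus markers it was 55.6 and 93.6 against 56.5 and 53.0 CPM, where Slc17a6 made FLOX+GCI replicate 2 stand apart.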

How the data were processed

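RNA-Seq of hippocampus was measured in 4 libraries, grouped and numbered by their titles. The authors aligned 50 bp single-end reads to mm9 with TopHat2 2.0.8b and deposited unnormalized HTSeq read counts, listed by gene symbol. The HTSeq version, strand setting and annotation are not given in the sources used here. The 5 counter rows were left out of totals and tests, among them reads aligned to more than 1 place (35.1% to 36.5% of all rows' reads). Genotypes were compared with edgeR 4.0.16 in R 4.3.3 (TMM, filterByExpr with a minimum count of 10, quasi-likelihood test, Benjamini-Hochberg at 0.05). Levels are CPM, and log2 CPM used a prior count of 2. The members and lists were chosen with earlier results of these data known.

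Positions, transcript lengths and GC content came from GENCODE M1 on NCBIM37, the same build as mm9. The symbol Map2 was matched through its older form Mtap2. The GC and length correction enters edgeR as an offset, from natural splines (5 degrees of freedom) of each library. Other alternatives were DESeq2 1.42.0, size factors, library totals, filters, edgeR's likelihood ratio test, a replicate block and each library left out. Genes named from the lists were the 3 with the smallest unadjusted p in each list of filament and partner genes, and for Gfap, the only member whose log2 CPM range passed 1, the 5 genes of most similar pattern; Synm, Evpl, Dst, Macf1 and single markers were added after their values were seen, and 1 gene that the rule names is not reported here. The procedure was tested on simulated counts before use. The 2 libraries of a genotype differed beyond sampling noise (chi-square per degree of freedom 10.5 in FLOX+GCI against 12.3 in FBN-ARO-KO+GCI).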

Additional observations from a re-analysis of the deposited data

How the results depend on the processing

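The count of genes with an adjusted p under 0.05 was 2 in edgeR's quasi-likelihood fit, and 5 with every gene of at least 1 count, 287 with DESeq2, 294 with edgeR's likelihood ratio test, 1 with the GC and length correction, and between 0 and 193 with 1 library left out. Among the members, 1 was called with DESeq2 (Vim), 2 with the likelihood ratio test (Vim and Lmna), and 0 or 1 with 1 library left out (Gfap without FLOX+GCI replicate 1, Lmna without FLOX+GCI replicate 2). With the GC and length correction, 5 members had an unadjusted p under 0.05 in edgeR, against 11.5% of the genes it covered. The same-numbered libraries share only a number, and their deviations from the group means correlated at 0.129 across genes. With the replicate block, 184 genes and 1 member (Lmna, adjusted p = 0.00886 in edgeR) were called. With the replicate block and the GC and length correction, 0 genes were called. In that fit 5 members had an unadjusted p under 0.05. The share of all genes is not given here, so this count alone says little about the members. The neuronal median was 0.16 there, the lamin median -0.10 and Nefh 0.11. The GC and length correction alone gave 0.16, -0.10 and 0.11. Library totals gave a neuronal median of -0.0070. With 1 library left out, the medians ranged from -0.65 to -0.36 (glial), -0.0075 to 0.048 (neuronal) and -0.33 to -0.17 (lamin). Log2 fold changes ranged from -0.76 to 0.42 for Gfap, -0.041 to 0.022 for Nefl and -0.18 to 0.027 for Nefh. The log2 difference ranged from -0.20 to 0.068 for Nefh to Nefl and from -0.86 to 0.20 for Vim to Gfap. A fit that leaves a genotype with 1 library assumes that it varies like the other libraries. The causes of these shifts were not tested. Vim, Nes and Lmna stayed below 0 and Nefm, Ina and Lmnb1 above 0 under all alternatives run. With 2 libraries a group and as few as 144 counts, the 95% interval of Lmnb1 spanned -0.17 to 0.58.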
